A study of Mus musculus with 6 samples.

Results

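The levels of 6 genes that are shared by, or tell apart, plasmacytoid dendritic cells and plasma cells were followed across 6 RNA-seq libraries of sorted mouse bone marrow long-lived plasma cells. The genes were Tcf4, Irf8, Spib, Runx2, Siglech and Cox6a2. They were taken by symbol from a deposited table of 13642 genes, and 6 of 6 were found. The symbols were chosen by name with earlier results of these libraries known, which may have included the FPKM of Cox6a2 and the others in these same 6 columns. The old against young values below are therefore a description, and the limma p-values are given as part of a fit over all genes and not as support for the choice. The question was whether these genes move together from library to library.

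The young group was 3 libraries from female C57BL/6J mice aged 2 to 3 months, supplied by the Jackson Laboratory or a UCLA facility. The old group was 3 libraries from male C57BL/6J mice aged 17 to 19 months, supplied by the National Institute on Aging. Age, sex and supplier therefore cannot be told apart. In both groups the cells were sorted as CD138 high and negative for B220, IgD, TCRb, TCRgd, CD11b and Gr-1. Nothing in the labels says whether a library is 1 animal or a pool, and the p-values therefore reflect library-to-library spread, some of which may be technical.

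Plasmacytoid dendritic cells are the blood and marrow cells that sense viral nucleic acids through endosomal Toll-like receptors and release large amounts of type I interferon. They share a secretory, endoplasmic-reticulum-rich look with plasma cells and, in mouse, carry surface proteins such as B220, which the sort gate selected against, and Siglec-H. Their identity rests on the E protein TCF4 (also called E2-2), helped by IRF8, SPIB and RUNX2, whereas plasma cells are run by IRF4, PRDM1 and XBP1.

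Levels are FPKM, fragments scaled by gene length and by how many were mapped in each library. The sorted cells carried plasma cell genes throughout. The summed level of 13 such genes was 21979 to 25582 FPKM in the young libraries, 24661 and 25082 in old replicates 1 and 2, and 10019 in old replicate 3. Old replicate 3 also had the highest sums of the monocyte list (860 FPKM over 9 genes, against 88.6 to 288 in the other libraries) and of the erythroid list (943 over 8 genes, against 12.4 to 306). From the steps of the low values, the libraries held about 22.6 M to 28.3 M reads. Pearson correlations between libraries over the log2 levels of all tested genes lay between 0.61 and 0.79.

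The 6 genes did not share one pattern. Cox6a2 was higher in every old library than in any young one, Siglech was high in 3 libraries of mixed age, Spib was highest in a pair of young libraries, and Irf8, Tcf4 and Runx2 were present in every library at 7.48 FPKM or more. Among the 15 pairs of genes, 0 had a Pearson r of at least 0.8 over the 6 libraries. The highest r of a pair was 0.54 and the lowest -0.78. Between 2.15% and 4.74% of all other tested genes had such an r with a given one of the 6, so a count of 0 sets these pairs little apart.

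**Figure D1:**
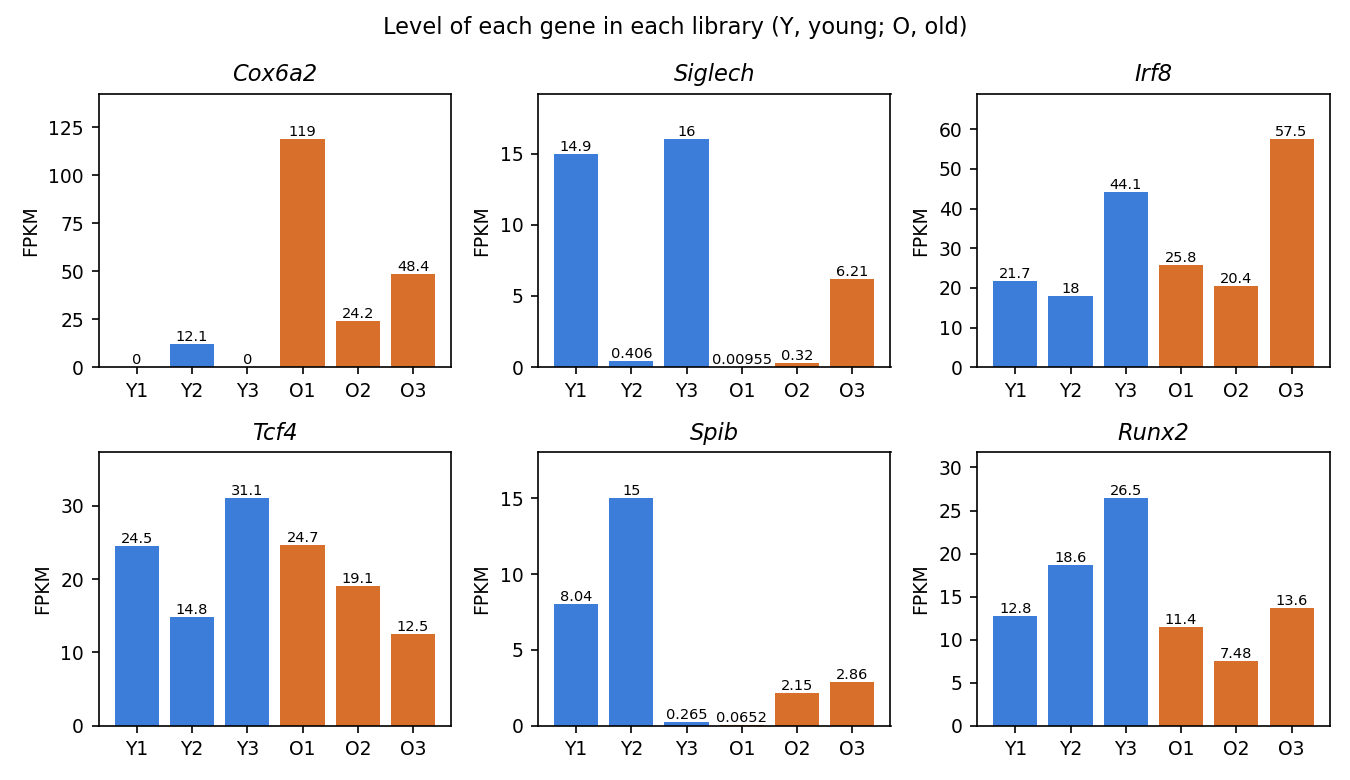
FPKM of each gene in each library, as bars from 0 (Y1 to Y3, young; O1 to O3, old), with a separate axis for each gene. Cox6a2 runs from 0 to 119 FPKM with all old libraries above all young ones, while the young and old bars of the other 5 genes overlap.

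Tcf4 encodes the E protein that sets and keeps plasmacytoid dendritic cell fate. It was at 24.5, 14.8 and 31.1 FPKM in young replicates 1 to 3 and at 24.7, 19.1 and 12.5 in old replicates 1 to 3. The groups overlapped, and no library fell below 12.5 FPKM. The log2 change, old minus young on the log2(FPKM + 1) scale, was -0.30 ± 0.50 (SE), with a limma adjusted p = 0.93 over all tested genes.

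Other E proteins and their partners were on the same list. Tcf3, which encodes the E protein E2A of B lineage cells, was at 59.3 ± 19.8 FPKM (SD, n = 3) in young libraries, against 60.1 ± 17.3 in old ones, and exceeded Tcf4 per length by 1.93 to 3.43 times in every library. That ratio depends on the gene lengths behind the FPKM, which are not given. The merged exons of Tcf4 cover 27382 bases. Tcf12, which encodes HEB, was at 10.2 ± 1.98 and 17.6 ± 7.70 FPKM. Id2, whose product blocks E proteins and is low in plasmacytoid dendritic cells, was listed at 1.70, 0 and 0 FPKM in the young group, against 7.11, 1.11 and 10.6 in the old group. Of 8 tested genes on this list 7 had a positive log2 change and 0 were called, with a median of 0.44. Over all tested genes 61.3% had a positive change, and the median was 0.23. Id1 and Id2, with young means of 0 and 0.566 FPKM, reached the mean of 1 FPKM needed for testing only through the old group. Part of this count and median therefore comes with the filter. Over all 10687 tested genes limma called 0, or 0% (adjusted p under 0.05), while at an unadjusted p under 0.05 498 genes (4.66%) were higher and 134 (1.25%) lower in old libraries. DESeq2 and edgeR were not run because the values are not counts.

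Irf8 encodes the interferon regulatory factor of dendritic cells, monocytes and B cells. It was at 21.7, 18.05 and 44.1 FPKM in young replicates 1 to 3, against 25.8, 20.4 and 57.5 in old replicates 1 to 3. Young replicate 3 and old replicate 3 stood above the other 4 libraries, which lay between 18.05 and 25.8 FPKM, and the groups overlapped. The log2 change was 0.26 ± 0.53 (SE; limma adjusted p = 0.94). Without old replicate 3, the library with the highest monocyte and erythroid sums, the log2 change was -0.17; the part of those cells in the level of Irf8 was not tested.

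Irf4, the plasma cell member of the family, was at 275 ± 67.0 FPKM (SD, n = 3) in young libraries, against 254 ± 92.7 in old ones. It exceeded Irf8 per length by 7.90 to 13.8 times in 5 libraries and by 2.63 times in old replicate 3, where Irf8 was highest and Irf4 lowest. Irf5, which acts downstream of Toll-like receptors, ranged from 9.89 to 86.6 FPKM. Irf7, the factor behind the interferon burst of plasmacytoid dendritic cells, was at 3.74, 5.24 and 21.5 in the young group, against 13.2, 5.02 and 5.94 in the old group. Of 9 tested IRF genes, 4 had a positive and 5 a negative log2 change, 0 were called, and the median was -0.06.

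Spib encodes an ETS factor that works in plasmacytoid dendritic cells and B cells, and its forced expression is known to hold back plasma cell differentiation. It was at 8.04, 15.04 and 0.265 FPKM in young replicates 1 to 3, against 0.0652, 2.15 and 2.86 in old replicates 1 to 3. All 6 values were whole multiples of a common step, which puts about 560, 1086 and 17 reads behind the young values and 5, 172 and 224 behind the old ones. Young replicates 1 and 2 were above every other library, whereas young replicate 3 fell below old replicates 2 and 3. Its log2 change was -1.28 ± 1.11 (SE; limma adjusted p = 0.85), and it was -2.36 without young replicate 3 and -0.53 without young replicate 2.

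Spi1, which encodes the related factor PU.1, ranged from 10.5 to 30.6 FPKM in all 6 libraries. It exceeded Spib per length by 1.55 and 1.94 times in young replicates 1 and 2, by 10.6 times in old replicates 2 and 3, and by 115 and 161 times in young replicate 3 and old replicate 1. Among 9 tested ETS genes, 5 had a positive and 4 a negative log2 change, 0 were called, and the median was 0.25. The most abundant were Elf1 (84.7 ± 32.9 FPKM in the young group, against 102 ± 4.45 in the old group) and Fli1 (84.7 ± 34.6 and 64.4 ± 9.40; SD, n = 3). Of 11 tested B cell markers, 0 had an r of at least 0.8 with Spib, beside 3.72% of all other tested genes, and their median r was 0.030. Siglecg, a B cell inhibitory Siglec named after its values were seen, had r = 0.86 with Spib over the 6 libraries and was at 14.0, 11.6 and 0.789 FPKM in the young group, against 3.84, 3.98 and 6.71 in the old group.

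Runx2 encodes a RUNX factor best known from bone, which in mouse plasmacytoid dendritic cells supports their maturation and exit from the marrow. It was at 12.8, 18.6 and 26.5 FPKM in young replicates 1 to 3, against 11.4, 7.48 and 13.6 in old replicates 1 to 3. Old replicate 3 lay above young replicate 1, so the groups overlapped by that single pair. The log2 change was -0.76 ± 0.55 (SE; limma adjusted p = 0.85). It stayed negative without any single library, between -1.01 and -0.51.

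The family member Runx3 was at 34.9 ± 4.23 FPKM (SD, n = 3) in young libraries, against 22.5 ± 7.19 in old ones, with every old library below every young one and a limma adjusted p = 0.85. Across all tested genes 3.42% showed such an order. Runx1 ranged from 0.292 to 14.5 FPKM and was highest in old replicate 3. Cbfb, the shared partner subunit, was at 14.8 ± 8.07 and 15.6 ± 6.53. Bone markers were scarce. Of 9 osteoblast genes listed, 4 were in the table, with sums of 15.2 to 32.0 FPKM in the young group, against 6.19 to 15.5 in the old group. The most abundant of them was Alpl, at 19.2 ± 11.3 and 7.30 ± 3.35 FPKM.

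Siglech encodes Siglec-H, the sialic-acid-binding receptor that marks plasmacytoid dendritic cells in mouse and signals through the adaptor DAP12. It was at 14.9, 0.406 and 16.01 FPKM in young replicates 1 to 3, against 0.00955, 0.320 and 6.21 in old replicates 1 to 3. By whole steps these are about 1421, 40 and 1400 reads in the young group, against 1, 35 and 663 in the old group. Young replicates 1 and 3 and old replicate 3 were high, the other 3 libraries were below 0.41 FPKM, and the groups overlapped. The log2 change was -1.77 ± 1.21 (SE; limma adjusted p = 0.85). Its within-group SD on the log2 scale, 1.81, was above that of 92.0% of tested genes.

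The same order of libraries, with young replicates 1 and 3 and old replicate 3 above the other 3, was present in 558 tested genes, or 5.22%. From the list of other plasmacytoid dendritic cell markers, 2 of 21 tested genes had an r of at least 0.8 with Siglech, against 2.79% of all other tested genes. Both are named for this value. Flt3, the growth factor receptor that drives dendritic cell development, had r = 0.93 and was at 19.0, 5.10 and 21.7 FPKM in the young group, against 2.44, 1.03 and 14.6 in the old group. Ptprs, a receptor phosphatase carried by plasmacytoid dendritic cells, had r = 0.93 and was at 12.4, 1.09 and 7.93 in the young group, against 0.616, 2.37 and 11.7 in the old group. The chemokine receptor gene Ccr2, also named after its values were seen, had r = 0.81 and was at 6.48, 0.00586 and 7.02 in the young group, against 0.177, 0.950 and 28.1 in the old group.

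Sums of marker lists of other cells were set beside the same split. The erythroid sum was 306, 12.4 and 205 FPKM in the young group, against 169, 50.2 and 943 in the old group. The T cell sum was 45.4, 17.4 and 51.0, against 18.8, 10.8 and 20.0, and both sums followed the split. The monocyte sum was 88.6, 196 and 246, against 208, 288 and 860, and did not. The neutrophil, conventional dendritic, B and NK cell sums did not either. Of 8 tested erythroid genes, 1 had an r of at least 0.8 with Siglech, and of 5 tested T cell genes, 1. The most abundant genes of the T cell list were Cd4, Lat and Tcf7. The T cell receptor complex genes of the list were named after their values were seen. Cd3e and Cd3d were at 0 in every young library, against 0, 2.73 and 0.934 FPKM and 1.89, 1.21 and 0 in the old group. Cd3g was at 0.0860, 1.74 and 5.05 in the young group, against 0, 2.52 and 0.0437 in the old group. The part of other cells in the level of Siglech was not tested. In bulk samples, fewer cells of a type and less RNA per cell cannot be told apart. Tyrobp, which encodes DAP12 and is also used by monocytes and neutrophils, was at 16.8, 0 and 8.92 in the young group, against 1.06, 20.1 and 68.9 in the old group, with r = 0.55. Of 5 tested genes on the Siglec and DAP12 list, 3 had a positive and 2 a negative log2 change, and 0 were called.

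The promoters of Siglech, Spib and Runx2 are shown because their letters can be set beside the levels of Tcf4, Runx2 and Spib. Each is the 250 bases before the gene's start, 5′ to 3′ on the gene's strand, from RefSeq on GRCm38.p6. Of the 6 genes, 4 were read (Siglech, Irf8, Spib and Runx2). Capitals mark matches on either strand to CACCTG, an E-box bound by E proteins such as TCF4, or to TGTGGT, the RUNX core. GAGGAA, the ETS core used by SPIB and PU.1, and the ETS-IRF composite element were also searched.
Siglech, chr7:55767934-55768183, plus strand: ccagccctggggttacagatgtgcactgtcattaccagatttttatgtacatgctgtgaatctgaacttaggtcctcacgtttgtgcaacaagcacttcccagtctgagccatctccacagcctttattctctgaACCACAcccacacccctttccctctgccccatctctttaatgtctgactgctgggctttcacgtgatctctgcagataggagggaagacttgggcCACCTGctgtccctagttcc
Runx2, chr17:44814628-44814877, minus strand: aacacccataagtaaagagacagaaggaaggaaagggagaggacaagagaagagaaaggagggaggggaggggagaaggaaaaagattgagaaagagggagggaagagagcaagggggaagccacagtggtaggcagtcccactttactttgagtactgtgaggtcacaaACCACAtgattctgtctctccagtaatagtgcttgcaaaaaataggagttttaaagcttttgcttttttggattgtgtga
Spib, chr7:44532072-44532321, minus strand: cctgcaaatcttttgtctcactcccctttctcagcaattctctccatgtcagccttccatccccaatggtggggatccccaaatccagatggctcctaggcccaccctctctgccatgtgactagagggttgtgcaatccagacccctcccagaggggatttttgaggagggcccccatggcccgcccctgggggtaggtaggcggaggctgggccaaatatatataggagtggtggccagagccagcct

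The Siglech window held 1 E-box match, starting 20 bases before the start site, and 1 RUNX match at 115 bases. Runx2's own window held 1 RUNX match at 80 bases, and the Spib window and the first Irf8 window held none of the 4 motifs. A second Irf8 window held 1 E-box match. Over 32851 promoter windows of the same length, 17.2% held the E-box, 14.0% the RUNX core, 23.3% the ETS core and 2.30% the composite. Across the 6 libraries Siglech had r = 0.32 with Tcf4, 0.51 with Runx2 and 0.0097 with Spib. A match is a run of letters, not a shown site.

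Cox6a2 encodes the heart and skeletal muscle form of subunit VIa of cytochrome c oxidase, the last enzyme of the respiratory chain, and in mouse it is also a transcript of plasmacytoid dendritic cells. The gene lies on chromosome 7 from 128205435 to 128206387, minus strand (GRCm38, GENCODE M21). It was listed at 0, 12.1 and 0 FPKM in young replicates 1 to 3 and at 119, 24.2 and 48.4 in old replicates 1 to 3. With merged exons of 680 bases these are about 210 reads in young replicate 2 and about 2187, 466 and 909 in the old libraries. Every old library was above every young one, which held for 8.78% of all tested genes. The log2 change was 4.49 ± 1.05 (SE), with an unadjusted p = 0.0015 and a limma adjusted p = 0.62 over all genes, so it was not called. With a pseudocount of 0.1 FPKM the log2 change was 6.71, as 2 of 3 young values are 0 and the pseudocount sets its size.

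The level of Cox6a2 varied within the old group by more than the gap between the nearest old and young libraries. It ran from 24.2 FPKM in old replicate 2 to 119 in old replicate 1, while young replicate 2, the nearest young library, was at 12.1. It was the most abundant of the 6 genes in old replicates 1 and 2 and the second in old replicate 3. Zeros were commoner in the young libraries for genes in general. Of the tested genes 8.14%, 11.9% and 19.5% were at 0 in young replicates 1 to 3, against 5.52%, 3.30% and 3.15% in old replicates 1 to 3. An FPKM of 0 in young replicates 1 and 3 with values above 0 in the other 4 libraries was seen in 139 tested genes, or 1.30%. An FPKM of 0 in 2 or 3 young libraries, with every old library above 0, was seen in 594 tested genes, or 5.56%. The reverse, with old and young exchanged, was seen in 13, or 0.12%. Cox5a, a subunit gene that every respiring cell uses, was also listed at 0 in young replicate 3, but at 9.07 FPKM in young replicate 1. Other subunit genes in young replicate 3 went both ways. Cox7c and Cox7a2l were at 0.277 and 0.0591 FPKM there, while Cox4i1, Cox5b and Cox8a were at 48.7, 154 and 116. How far these general zeros enter the Cox6a2 difference was not tested.

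The common form of the subunit is encoded by Cox6a1, which was at 64.3, 134 and 91.3 FPKM in the young group, against 32.9, 162 and 58.4 in the old group. Per length, Cox6a2 was above Cox6a1 in old replicate 1 and below it in the other 5 libraries, and the Cox6a1 to Cox6a2 ratio was 11.01 in young replicate 2 and 0.277, 6.70 and 1.21 in old replicates 1 to 3. The coding sequences of the pair were compared because reads shared by copies could be split. Over 287 aligned bases, 66.6% were identical, and the longest run they share is 12 bases. Untranslated parts were not compared, and how reads of the pair were assigned was not tested. The run is shown in capitals with its flanks, 5′ to 3′, from the GENCODE M21 transcripts.
Cox6a2: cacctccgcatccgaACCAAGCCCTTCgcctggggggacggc
Cox6a1: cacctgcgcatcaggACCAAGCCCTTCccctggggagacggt

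Of the 680 exon bases of Cox6a2, 70 are shared with exons of Itgad, an integrin gene on the opposite strand. Whether counting used strand is not given in the sources used here, so reads in those bases cannot be told apart. Itgad was not among the genes of the deposited table, so its level is not known here.

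Other tissue-restricted subunits of the same enzyme were rarer. Cox7a1, the muscle form of subunit VIIa, was listed at 0 in all 3 young libraries, against 0, 11.7 and 18.3 FPKM in the old ones, and Cox4i2 was at most 3.99 FPKM. Of 16 tested subunit genes, Cox6a2 included, 11 had a positive and 5 a negative log2 change, 0 were called, and the median was 0.75. Over all tested genes 61.3% had a positive change, and the median was 0.23. Cox7a1 and Cox6b2, both at 0 in every young library, passed the filter only through the old group. Part of the subunit count and median therefore comes with the filter. The abundant subunits Cox8a and Cox7b were at 191 ± 157 and 115 ± 20.4 FPKM in the young group, against 98.1 ± 21.8 and 70.8 ± 22.3 in the old group (SD, n = 3). Of 12 skeletal muscle markers listed, Cox7a1 among them, 7 were in the table, with sums of 20.9, 53.1 and 4.12 FPKM in the young group, against 6.66, 37.7 and 32.5 in the old group, and 0 of 4 tested had an r of at least 0.8 with Cox6a2, beside 4.74% of all other tested genes. Tnnt3, which encodes fast skeletal troponin T, was at 6.78, 49.6 and 4.07 FPKM in the young group, against 3.18, 11.4 and 0.0260 in the old group. The part of muscle cells in the level of Cox6a2 was not tested.

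**Figure D2:**
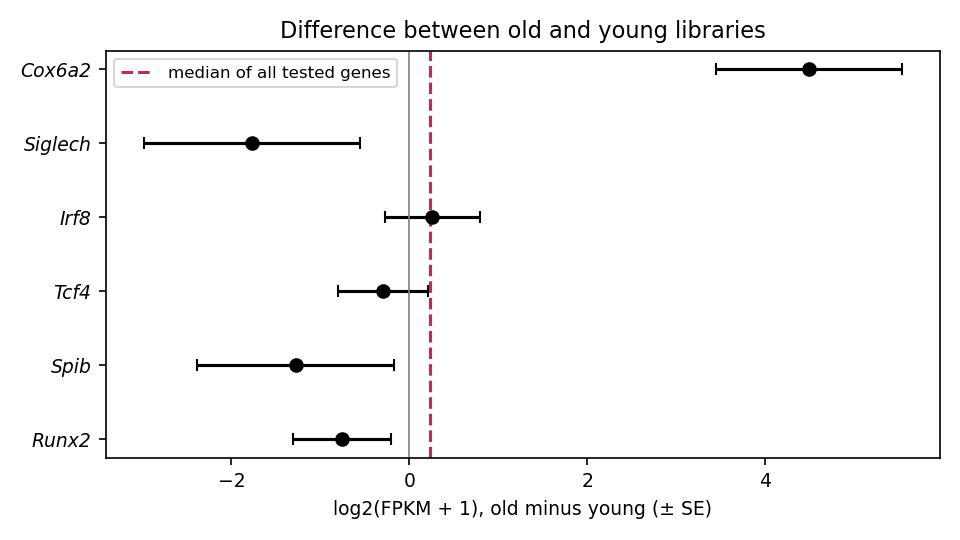
Difference between old and young libraries for each gene on the log2(FPKM + 1) scale, as points with bars of 1 SE from limma, and the median of all tested genes as a dashed line at 0.23. Cox6a2 sits at 4.49 and the other 5 genes between -1.77 and 0.26.

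On co-movement, 7 of the 15 pairs had a positive and 8 a negative r over the 6 libraries. The highest was 0.54, for Siglech with Irf8, followed by 0.51 for Siglech with Runx2. The lowest was -0.78, for Cox6a2 with Siglech (Spearman rho -0.81). Cox6a2 also had r = -0.54 with Runx2, -0.53 with Tcf4, -0.22 with Spib and 0.014 with Irf8. These correlations carry no p because the genes were chosen with results known, and all points share the same 6 libraries and their depths.

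For Cox6a2 and Siglech, r was -0.76 after group means were removed. Within the young group, Cox6a2 was above 0 in young replicate 2 alone, at 12.1 FPKM. Siglech was at its lowest of that group there, at 0.406 FPKM. How far that library carries the value of -0.76 was not tested. With group means kept and any single library left out, r lay between -0.95 and -0.68. Without both young replicates 1 and 3, the libraries farthest from the median of Cox6a2, r was 0.04 over the remaining 4. Those libraries were picked by the Cox6a2 values, which narrows its range, so a weaker r there is partly built in. Tcf4 and Spib had r = -0.55 over 6 libraries and -0.85 with group means removed. Irf8 and Runx2 went from 0.38 to 0.79, and Siglech and Irf8 from 0.54 to 0.78, when group means were removed.

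Without single libraries the count of pairs at 0.8 or more stayed at 0, with 2 exceptions of 1 pair each. Without young replicate 1 the highest r was 0.84 (Siglech and Irf8), and without old replicate 3 it was 0.87 (Irf8 and Tcf4). Between 2.15% and 4.74% of all other tested genes had an r of at least 0.8 with a given one of the 6 genes.

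**Figure D3:**
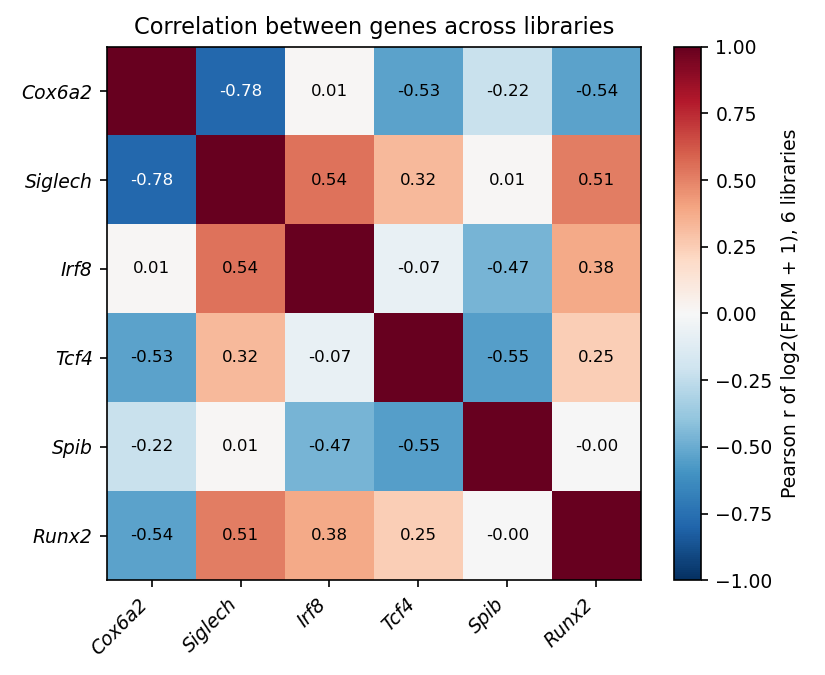
Pearson r of log2(FPKM + 1) over 6 libraries for each pair of the 6 genes, from -1 (blue) to 1 (red). The 15 values run from -0.78 for Cox6a2 with Siglech to 0.54 for Siglech with Irf8, and 0 reach 0.8.

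The wider list of plasmacytoid dendritic cell markers held genes of both directions. Of 28 listed genes beside the 6, 26 were in the table and 21 were tested. Of these, 13 had a positive and 8 a negative log2 change, 0 were called, and the median was 0.25 beside 0.23 for all tested genes. Its most abundant genes, Rnase6, Ly6d and Dntt, are not restricted to these cells. Rnase6, a ribonuclease gene, was at 513 ± 202 FPKM (SD, n = 3) in young libraries, against 584 ± 130 in old ones. Ly6d, a surface gene of early B lineage and plasmacytoid dendritic progenitors, was at 302 ± 34.3 and 165 ± 24.7, with every old library below every young one (log2 change -0.87 ± 0.27 SE, limma adjusted p = 0.74). Such an order held for 3.42% of all tested genes. Dntt, the terminal transferase gene of early lymphoid cells, was at 163, 121 and 181 in the young group, against 13.8, 0.117 and 74.6 in the old group (limma adjusted p = 0.74).

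Of 10 defining markers, Cox6a2 and Siglech included, 8 were in the table and 6 were tested. Of these, 4 had a positive and 2 a negative log2 change, and 0 were called. The median was 1.98 beside 0.23 for all tested genes. It was 1.15 without young replicate 3, 1.38 without old replicate 3 and 1.56 with no filter on low values. Smim5 and Pacsin1, with young means of 0.00876 and 0.825 FPKM, passed the filter only through the old group. Part of this median therefore comes with the filter, and it is no test of the markers. Ccr9, the gut-homing receptor of mature plasmacytoid dendritic cells, was at 13.2, 9.11 and 11.4 FPKM in the young group, against 8.27, 6.97 and 4.30 in the old group. Pacsin1, an adaptor gene tied to their interferon response, was at 0.441, 2.03 and 0 in the young group, against 4.43, 4.82 and 8.06 in the old group. With r = 0.93 it was the 1 gene of the 21 tested on the wider list at 0.8 or more with Cox6a2. That count is near the share of 4.74% among all other tested genes. Pld4, an endolysosomal exonuclease gene, was at 24.5, 19.4 and 0.517 in the young group, against 16.3, 47.0 and 52.6 in the old group. Of others named after their values were seen, Smim5 was listed at 0, 0 and 0.0263 against 3.75, 0 and 18.6, Upb1 at 0 in the young libraries and at most 3.32 in the old ones, and Cd300c was above 0 in old replicate 2 alone, at 4.60. Over the 6 defining markers in the table that are not among the 6 genes, the sums were 38.2, 30.5 and 11.9 FPKM in the young group, against 32.9, 66.7 and 84.9 in the old group. The libraries with the lowest sum, young replicate 3, and with the highest, old replicate 3, were both among the 3 libraries high in Siglech.

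Of the sensing pathway of these cells, the receptor genes Tlr7 and Tlr9 were named after their values were seen. Tlr7 was at 2.35, 0.578 and 0.560 FPKM in the young group, against 0.535, 10.2 and 3.68 in the old group, and Tlr9 reached 1 FPKM in young replicate 2 alone, at 4.94. Unc93b1, which carries both receptors to endosomes, was at 219 ± 44.0 in the young group, against 139 ± 30.2 in the old group (SD, n = 3), with every old library below every young one (limma adjusted p = 0.84). Such an order held for 3.42% of all tested genes, and the opposite order for 8.78%. Ifnar2, a chain of the interferon receptor, went the other way, at 8.97, 1.25 and 6.89 against 10.06, 21.7 and 43.7 (limma adjusted p = 0.83). Of 12 tested genes of the pathway, 7 had a positive and 5 a negative log2 change, 0 were called, and the median was 0.02.

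**Figure D4:**
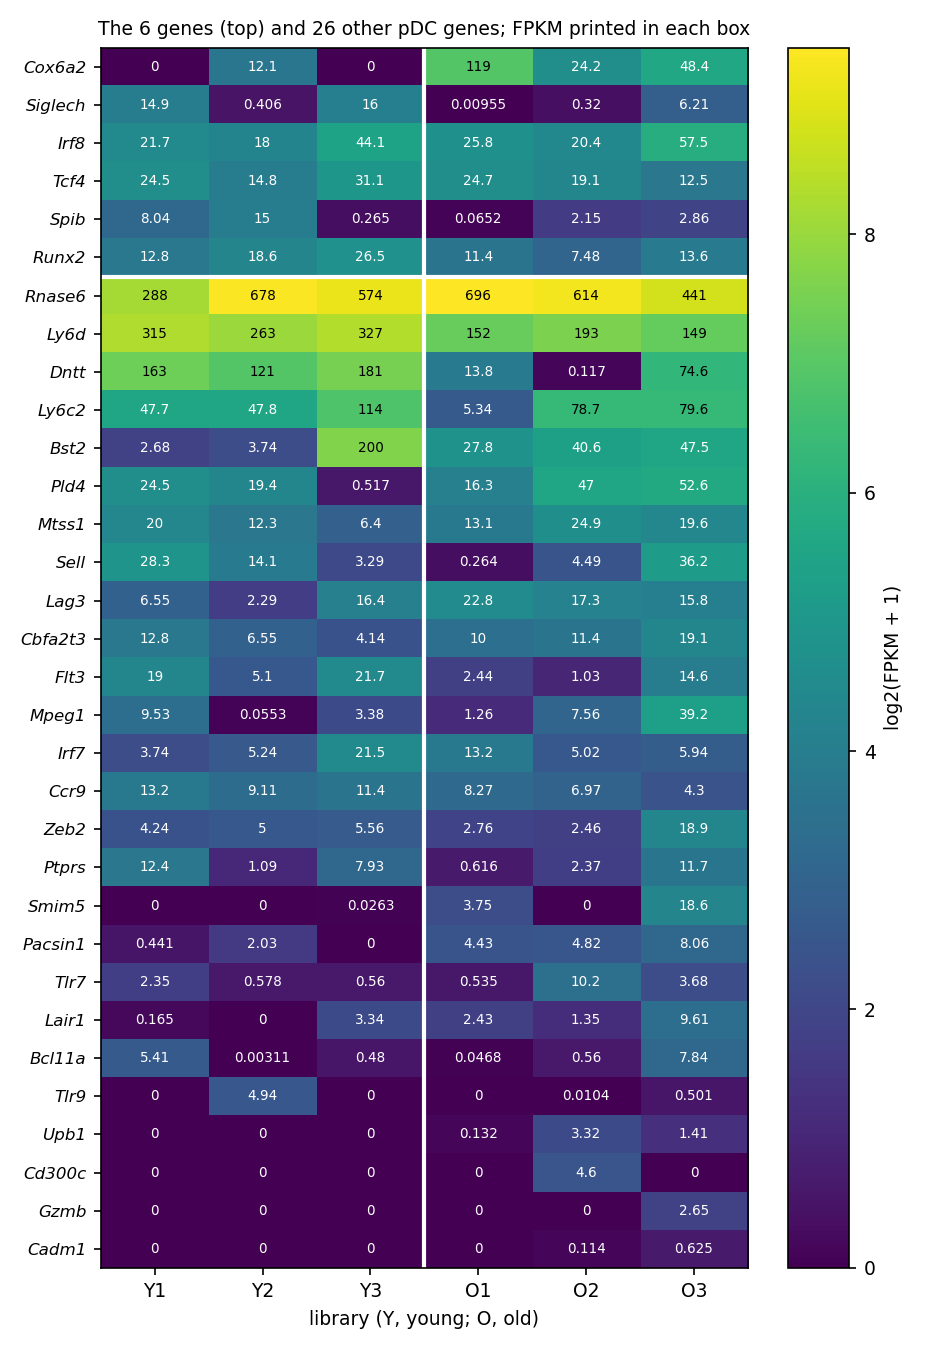
Log2(FPKM + 1) as color, with the FPKM printed in each box, for the 6 genes (top) and 26 other plasmacytoid dendritic cell genes sorted by mean level, in 6 libraries (Y, young; O, old). Flt3 and Ptprs share the order of Siglech, high in Y1, Y3 and O3, while Pacsin1 is highest in the old libraries.

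For each of the 6 genes the 3 tested genes of most similar pattern were found by Pearson r of log2(FPKM + 1) over the 6 libraries. For Cox6a2 they were Sav1 (r = 0.993), Gtf2h5 (0.991) and Ormdl1 (0.991). Sav1, which encodes a scaffold protein of the Hippo kinase pathway, was at 11.7, 26.4 and 13.03 FPKM in young replicates 1 to 3 and 54.5, 38.8 and 39.8 in old replicates 1 to 3. For Siglech they were Zak, Wwp2 and Oraov1 (0.986, 0.985 and 0.977), and for Irf8 Paqr9, Sox6 and Tmem229b (0.994, 0.983 and 0.983). For Tcf4 they were Pdrg1, Mfng and Sec31a (0.993, 0.990 and 0.978). For Spib they were Kdm5c, Lpar6 and Tardbp (0.990, 0.990 and 0.988), and for Runx2 St7l, 2510039O18Rik and Fam129a (0.994, 0.986 and 0.979). None of the 18 genes was on the plasmacytoid dendritic cell list. Sec31a, a coat protein gene of vesicles that leave the endoplasmic reticulum, followed Tcf4 at 44.6, 27.4 and 49.2 FPKM in the young group, against 46.8, 37.7 and 23.5 in the old group. Irf4 also had r = 0.91 with Tcf4, a value given after it was seen.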

How the data were processed

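RNA from sorted bone marrow plasma cells was made into libraries with a stranded total RNA kit and sequenced as paired ends, per the labels' protocols. The authors deposited 1 table of FPKM for 6 libraries. Per the submitters' processing notes, bcl2fastq 2.17, STAR and DESeq2 were used, with builds named GRCm38 and mm10. The counting tool, its annotation and its use of strand are not given in the sources used here.

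From the deposited FPKM, log2(FPKM + 1) was tested with limma 3.58.1 (R 4.3.3, trended variance, two-sided, Benjamini-Hochberg over 10687 genes with a mean of at least 1 FPKM). The pseudocount understates changes of low genes. A gene was called at an adjusted p under 0.05. The fit was tested on simulated data. Relative depth came from the steps between low values, whole within 0.03 reads or 0.03% of the value. The 6 genes and all gene lists were chosen with earlier results of these data known. Beside the 6 genes, the text names the most abundant or smallest-p genes of each list, the 3 genes most like each of the 6, levels of any gene of their families (IRF, ETS, E protein, RUNX, cytochrome oxidase), and others said to be named after their values were seen. Alternatives were other pseudocounts, filters and scalings, array weights, robust moderation, a replicate block and leaving out each library.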

Additional observations from a re-analysis of the deposited data

How the results depend on the processing

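Over all tested genes, limma called 0 genes, and 1 (Hist1h3f) under quantile normalization, array weights or robust moderation; the cause was not tested. Leaving out each library in turn, the log2 change was 3.87 to 5.73 for Cox6a2, -2.95 to -1.16 for Siglech, -2.36 to -0.53 for Spib, -1.01 to -0.51 for Runx2, -0.58 to -0.047 for Tcf4 and -0.17 to 0.63 for Irf8. With a pseudocount of 0.1 FPKM, Cox6a2 was at 6.71. Irf8 alone of these 6 reversed, at -0.17 without old replicate 3. With a minimum mean of 5 FPKM, Spib was not tested. The limma adjusted p of Cox6a2 ranged from 0.25 to 0.88 over 14 alternatives. Pairs with r of at least 0.8 numbered 0 to 1 with a library left out. With the replicate number as a block, limma called 0 genes and Cox6a2 had an adjusted p = 0.81. No pairing by replicate number was seen, as same-numbered libraries had correlations of their deviations of -0.034, 0.020 and -0.0041. Not every library correlated best with its own number. This check cannot show that the samples were unpaired, and the labels state no pairing. With 3 libraries a group, within-group spread limits every comparison here.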
